A study of Mus musculus with 12 samples.

Results

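Proteases of the ADAM, ADAMTS and MMP families and their TIMP inhibitors were followed in a mouse mesenchymal cell line in which the microRNA miR-140 had been raised or blocked. Genes were taken by symbol: Adam, Adamts or Mmp followed by a number and, for Adam and Mmp, an optional letter, or Timp followed by a number. This gave 65 of the 18193 genes that the arrays name, made up of 28 ADAM, 15 ADAMTS, 18 MMP and 4 TIMP genes. They are measured by 116 of 45037 probe sets, a probe set being a group of short probes against the same transcript. Each gene was read from its probe set with the highest mean over 12 arrays, and 31 of the 65 lay at or above 4.14, the median level of all probe sets on the log2 scale. All 4 probe sets of Adamts5 are given.

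ADAMs are membrane-bound metalloproteases, many of which act as sheddases that cut growth factors, receptors and adhesion proteins off the cell surface. ADAMTS enzymes are secreted relatives that cleave matrix proteoglycans such as aggrecan and versican, procollagens and cartilage oligomeric matrix protein (COMP), and MMPs degrade collagens, gelatin and basement membrane. TIMPs are small secreted proteins that block the active site of MMPs and, for TIMP3 in particular, of ADAM and ADAMTS enzymes as well. In cartilage the aggrecan-cleaving enzyme ADAMTS5 is known for its part in matrix loss in osteoarthritis, and it has been studied as a target of miR-140, a microRNA of cartilage.

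The cells were C3H10T1/2, a line from mouse embryo that can take on cartilage, bone, fat or muscle fates. The siRNA-140 group received a mimic of miR-140, and its control received siRNA-96. The anti-miR-140 group received LNA-antimicroRNA-140, a locked nucleic acid oligonucleotide that suppresses endogenous miR-140, and its control received LNA-antimicroRNA-449. Each of these 4 groups had 3 arrays. No untreated cells are among them, so each difference sets a miR-140 agent against an agent named for another microRNA. The labels do not say that replicates were separate cultures, so p-values measure only the spread between these samples, which may be technical. Mature microRNAs were not measured. The RefSeq (GRCm38.p6) sequences of miR-140-3p, miR-96-5p and miR-449a-5p are printed 5′ to 3′. Bases 2 to 8, the seed that pairs with targets, are in capitals. The labels do not say which arm an agent follows, and the opposite arms are not printed. A printed seed, that of miR-140-3p included, may therefore not be the seed of the agent. The microRNA loci are chr8:107551288-107551308, plus strand for miR-140-3p, chr6:30169506-30169528, minus strand for miR-96-5p and chr13:113037549-113037570, plus strand for miR-449a-5p.
mmu-miR-140-3p: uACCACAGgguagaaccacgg
mmu-miR-96-5p: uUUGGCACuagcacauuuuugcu
mmu-miR-449a-5p: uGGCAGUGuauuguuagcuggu

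The siRNA arrays did not all follow their labels. On the first principal component, which held 53.2% of the variance among the 6 siRNA arrays, the scores were -25.2, -34.2 and 28.4 for replicates 1, 2 and 3 of siRNA-140 and -33.1, 32.4 and 31.7 for replicates 1, 2 and 3 of siRNA-96. siRNA-140 replicate 3 correlated best with siRNA-96 replicate 2, and siRNA-96 replicate 1 with siRNA-140 replicate 1. Calls among the 65 members are therefore given for the 12 arrays as labelled and for a 10-array fit. For many single genes the difference is given from the 10-array fit only, and for a few as labelled only. The 10-array fit drops siRNA-140 replicate 3 and siRNA-96 replicate 1. These arrays were left out because of their profile, so adjusted p-values of the 10-array fit are not independent evidence. A fit of the 4 remaining siRNA arrays alone is given beside it; it rests on the same choice of arrays and gives the same differences, so it is no more independent. Whether the 2 arrays were exchanged was not tested, and if they were, the differences as labelled would set mixed groups against each other. Fibroblast markers were at or above the median level for 11 of 12 measured genes, with Thy1 under it. Their summed linear values ran from 40228 to 47877 with siRNA-140, from 38667 to 47857 with siRNA-96, from 52318 to 53894 with anti-miR-140 and from 52531 to 55089 with anti-miR-449. Array medians were 3.95 to 4.02 in the siRNA arrays and 4.32 to 4.38 in the anti-miR arrays, so these sums cannot be compared between the experiments. The median level of 4.14, taken over all 12 arrays, lies above every siRNA array median and under every anti-miR array median. Of the chondrocyte markers 4 of 9 reached the median level, and Acan did not. The siRNA arrays also differed in interferon response genes, whose mean log2 level was 4.52, 4.65 and 6.31 in replicates 1, 2 and 3 of siRNA-140 and 4.68, 7.24 and 7.66 in replicates 1, 2 and 3 of siRNA-96. In the 10-array fit 16 of 17 measured interferon genes were lower with siRNA-140 and Cmpk2 was not called. The part of the interferon genes in the protease results was not tested.

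With the arrays as labelled, no protease or TIMP gene differed between siRNA-140 and siRNA-96 after adjustment: limma called 0 of 65 members, and 0% of all 18193 genes. At an unadjusted p under 0.05 there were 4 members, Mmp3, Adam26a, Adam5 and Adam6a, against 4.9% of all genes. All 4 were higher with siRNA-140 and none reached the median level. The members' median log2 difference was 0.02, against 0.03 over all genes. In the 10-array fit 6 of 65 members passed an adjusted p of 0.05, where 11.1% of all genes did. Adam9, Adamts12 and Adamts6 were lower, where 4.85% of all genes were, and Adam8, Timp1 and Timp2 were higher, where 6.27% were. The share of members called lay near that of genes in general. Among the 31 members at or above the median level 5 passed, against 16.9% of all genes at that level. The 4 siRNA arrays alone called Adam8, Adam9 and Adamts12, which is 3 of 65, where 4.83% of all genes passed.

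Among the sheddase ADAMs, Adam8 was higher and Adam9 lower with siRNA-140 in the 10-array fit, and the other 7 were not called. Adam8 encodes a membrane protease known mainly from leukocytes and osteoclasts. Its log2 value was 6.59, 6.91 and 5.58 in replicates 1, 2 and 3 of siRNA-140, against 6.50, 5.41 and 5.12 in replicates 1, 2 and 3 of siRNA-96. siRNA-140 replicates 1 and 2 and siRNA-96 replicate 1 were high, the other 3 siRNA arrays were low, and the groups overlapped. The mean was 6.36 ± 0.69 in siRNA-140 arrays and 5.68 ± 0.73 in siRNA-96 arrays (SD, n = 3 each), a log2 difference of 0.68 ± 0.33 (SE; 95% interval -0.02 to 1.38, limma adjusted p = 0.88). The 10-array fit gave 1.49 ± 0.13 (interval 1.20 to 1.77, limma adjusted p = 1.4e-05), and the 4 siRNA arrays alone gave the same difference with an adjusted p of 0.00093. Adam8 thus had the largest difference of the 65 members in each of these fits. Of 8 macrophage markers Cd68, Lyz2, Csf1r and Cd14 reached the median level, and Ptprc, Adgre1, Itgam and Fcgr1 did not. Their summed linear values were 252, 299 and 247 in replicates 1, 2 and 3 of siRNA-140, against 290, 258 and 242 in replicates 1, 2 and 3 of siRNA-96. The highest 2 sums were in arrays with high Adam8. However, siRNA-140 replicate 1, also high for Adam8, had a lower sum than siRNA-96 replicate 2, which was low for Adam8. In the 10-array fit Itgam was higher and Csf1r lower, and neither was called in the 4 siRNA arrays alone. The part of these markers in the Adam8 result was not tested. All 5 measured neutrophil markers lay under the median level.

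Adam9, a widely expressed sheddase able to cleave the growth factor HB-EGF, had the opposite pattern. Its log2 value was 9.98, 10.03 and 10.65 in replicates 1, 2 and 3 of siRNA-140, against 9.75, 10.70 and 10.59 in replicates 1, 2 and 3 of siRNA-96. The same arrays that were high for Adam8 were low for Adam9, and the groups as labelled overlapped, with a log2 difference of -0.13 ± 0.22 (SE; interval -0.59 to 0.34). The 10-array difference was -0.64 ± 0.10 (interval -0.86 to -0.42, limma adjusted p = 0.0014), and the adjusted p was 0.033 in the 4 siRNA arrays alone. Adam10, which cleaves Notch and the amyloid precursor, differed by 0.07 in the 10-array fit (interval -0.15 to 0.30). Adam17, the TNF-alpha converting enzyme, differed by 0.01 (interval -0.22 to 0.23). These intervals, each from the brightest probe set, leave out changes of the size seen for Adam9. A dimmer Adam17 probe set, 1421857_at, gave 0.30 (interval -0.14 to 0.74), which does not leave them out. The intervals of the other Adam10 and Adam17 probe sets do. Adam15, a sheddase with an integrin-binding motif, differed by 0.31 (interval 0.08 to 0.54, limma adjusted p = 0.10) and was not called. Its probe sets 1416080_at and 1425170_a_at gave 0.27 and 0.41, while 1454206_a_at had the opposite sign, at -0.225 (interval -0.47 to 0.02). These were not called. Adam12, Adam19, Adam28 and Adam33 differed by -0.22 to -0.15 and were not called either.

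**Figure D1:**
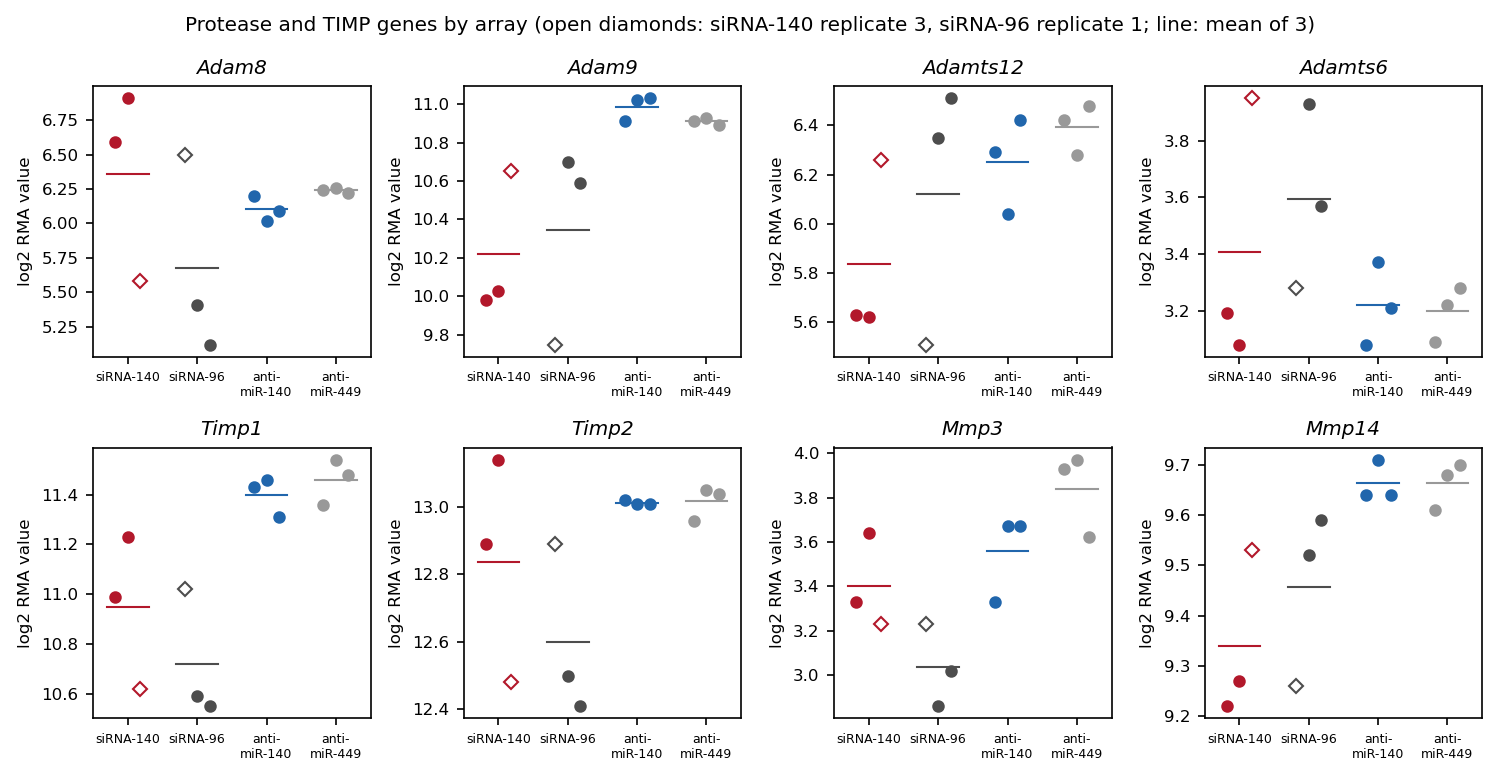
Log2 RMA value (y axis) of 8 protease and TIMP genes in each array, with the 4 groups along the x axis and a line at each group mean of 3 arrays; open diamonds are siRNA-140 replicate 3 and siRNA-96 replicate 1. For Adam8, Timp1 and Timp2 siRNA-96 replicate 1 lies with siRNA-140 replicates 1 and 2, and for Adam9, Adamts12 and Mmp14 it lies with them at the low end.

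Of the 7 ADAMTS genes whose products cleave aggrecan or versican, none was called by its brightest probe set with the arrays as labelled, in the 10-array fit or in the 4 siRNA arrays alone. Adamts5, the main aggrecan-cleaving enzyme of mouse cartilage, came closest. Its probe set 1422561_at read 10.29, 10.43 and 10.83 in replicates 1, 2 and 3 of siRNA-140, against 10.22, 10.91 and 10.86 in replicates 1, 2 and 3 of siRNA-96. The low arrays were again siRNA-140 replicates 1 and 2 and siRNA-96 replicate 1, so the groups overlapped. The mean was 10.52 ± 0.28 in siRNA-140 arrays and 10.66 ± 0.38 in siRNA-96 arrays (SD, n = 3 each), a difference of -0.15 ± 0.19 (SE; interval -0.56 to 0.27). In the 10-array fit the difference was -0.53 ± 0.15 (interval -0.86 to -0.19), with a limma adjusted p of 0.0503 that just missed the threshold. It passed under several other settings, with an adjusted p of 0.0071 for an intensity trend with robust variances and 0.012 for the mean of the 4 probe sets. It did not pass with array weights, in the 4 siRNA arrays alone or when any further array was left out.

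The other Adamts5 probe sets gave smaller differences of the same sign. Probe set 1456404_at read 9.94, 10.03 and 10.33 in replicates 1, 2 and 3 of siRNA-140, against 9.75, 10.32 and 10.39 in replicates 1, 2 and 3 of siRNA-96, and its 10-array difference of -0.37 ± 0.11 (SE) passed with a limma adjusted p of 0.049. Probe set 1450658_at read 8.91, 8.93 and 9.18 with siRNA-140, against 8.82, 9.18 and 9.37 with siRNA-96, and its 10-array difference of -0.35 ± 0.16 did not pass (adjusted p = 0.21). The dim probe set 1456969_at, at 3.56, 3.43 and 4.24 with siRNA-140, against 3.34, 4.25 and 3.56 with siRNA-96, differed by -0.41 ± 0.19 (adjusted p = 0.24). In all 4 probe sets siRNA-96 replicate 1 was the lowest array of its group. None of the 4 passed in the 4 siRNA arrays alone, where adjusted p ran from 0.0795 to 0.42.

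**Figure D2:**
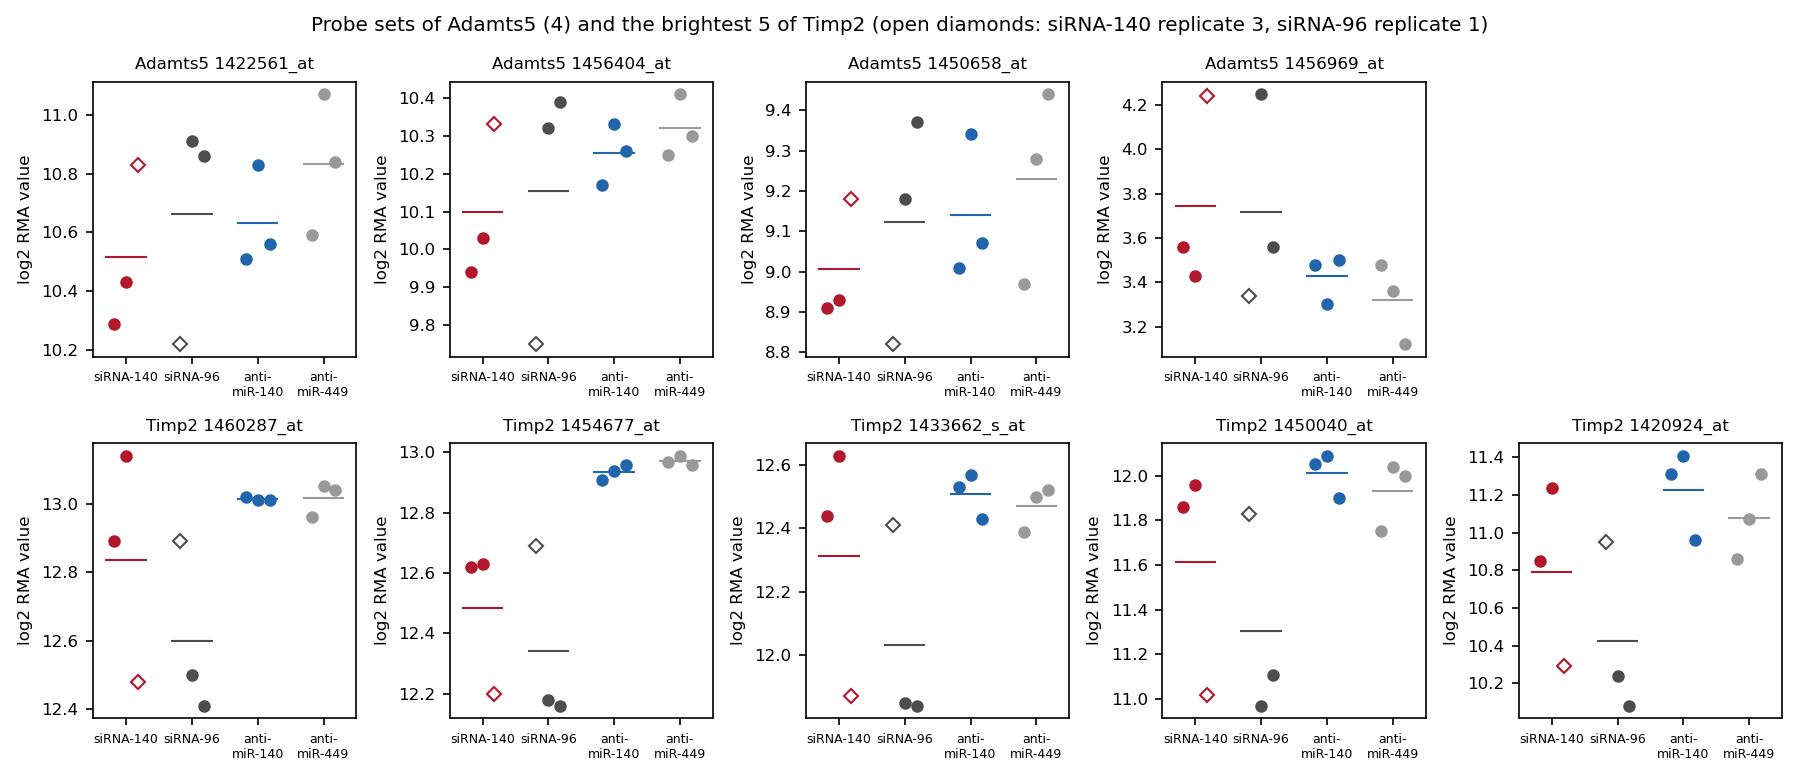
Log2 RMA value (y axis) by group (x axis) for the 4 probe sets of Adamts5 and the 5 brightest of Timp2; lines are group means of 3 arrays and open diamonds are siRNA-140 replicate 3 and siRNA-96 replicate 1. The 3 bright Adamts5 probe sets are lowest in siRNA-96 replicate 1 and siRNA-140 replicates 1 and 2, and the Timp2 probe sets are highest in these arrays within the siRNA groups.

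Adamts1, an enzyme that cleaves versican and aggrecan, differed by -0.21 in the 10-array fit (interval -0.44 to 0.01, limma adjusted p = 0.26). Adamts4, the other classical aggrecanase, differed by 0.21 (interval -0.13 to 0.56), and Adamts8, a weaker aggrecan-cleaving enzyme, by -0.01 (interval -0.24 to 0.22). Adamts9, a versican-cleaving enzyme, differed by -0.12 (interval -0.48 to 0.24). In the 10-array fit the intervals for Adamts1, Adamts4, Adamts8 and Adamts9 hold no fall of the size that the brightest Adamts5 probe set showed.

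Adamts12 and Adamts7 both encode enzymes that cleave COMP, and only Adamts12 was called. Adamts12 read 5.63, 5.62 and 6.26 in replicates 1, 2 and 3 of siRNA-140, against 5.51, 6.35 and 6.51 in replicates 1, 2 and 3 of siRNA-96. The pattern over arrays was that of Adam9, with siRNA-96 replicate 1 lowest of all 6. As labelled the mean was 5.84 ± 0.37 in siRNA-140 arrays and 6.12 ± 0.54 in siRNA-96 arrays (SD, n = 3 each), a difference of -0.29 ± 0.23 (SE; interval -0.78 to 0.20). The 10-array difference was -0.81 ± 0.13 (interval -1.09 to -0.52, limma adjusted p = 0.0017), and the adjusted p was 0.012 in the 4 siRNA arrays alone. A second, dim Adamts12 probe set, 1446666_at, gave 0.22 ± 0.13 (adjusted p = 0.41), and the mean of both probe sets gave -0.29 (adjusted p = 0.15). Adamts7 differed by 0.20 (interval -0.11 to 0.52).

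Adamts6, an enzyme of the remaining ADAMTS genes that acts on microfibrils, was also lower in the 10-array fit but was dim. It read 3.19, 3.08 and 3.95 in replicates 1, 2 and 3 of siRNA-140, against 3.28, 3.93 and 3.57 in replicates 1, 2 and 3 of siRNA-96, all under the median level of 4.14. Its 10-array difference was -0.61 ± 0.14 (SE, limma adjusted p = 0.013), which the 4 siRNA arrays alone did not call (adjusted p = 0.070). Without siRNA-96 replicate 2 as well the difference was -0.44 with an adjusted p of 0.12, and without siRNA-140 replicate 2 it was -0.56 with an adjusted p of 0.096. The mean of both Adamts6 probe sets differed by -0.23 (adjusted p = 0.17). Adamts18 and Adamts19, less well known members, and Adamts3, which trims procollagen, were dim and not called, with 10-array differences of 0.26, 0.29 and 0.01.

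None of the 18 MMP genes was called in the 12-array, the 10-array or the 4-array fit of the siRNA comparison, though Mmp3 passed under other settings given with its values. Mmp14, the membrane-type enzyme that activates pro-MMP2, read 9.22, 9.27 and 9.53 in replicates 1, 2 and 3 of siRNA-140, against 9.26, 9.52 and 9.59 in replicates 1, 2 and 3 of siRNA-96. Its 10-array difference of -0.31 ± 0.10 (SE; interval -0.52 to -0.10) had a limma adjusted p of 0.076. Mmp2, the gelatinase of stromal cells, averaged 10.19 ± 0.10 in the siRNA-140 arrays, against 10.09 ± 0.08 in the siRNA-96 arrays (SD, n = 3 each), and its 10-array difference was 0.09 (interval -0.14 to 0.31). Mmp16, another membrane-type enzyme, differed by -0.03 (interval -0.29 to 0.23). The 4 genes grouped here as collagenases by family, Mmp1a, Mmp1b, Mmp8 and Mmp13, all lay under the median level, as did 10 of the 18 MMP genes in all.

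Mmp3, stromelysin 1, which cleaves proteoglycans and activates other MMPs, had the smallest p of the MMP genes as labelled, in a dim probe set. It read 3.33, 3.64 and 3.23 in replicates 1, 2 and 3 of siRNA-140, against 3.23, 2.86 and 3.02 in replicates 1, 2 and 3 of siRNA-96. The groups touched at a single shared value, and all 6 arrays lay under the median level. The difference was 0.36 ± 0.15 (SE; interval 0.05 to 0.68, limma adjusted p = 0.88) and, in the 10-array fit, 0.55 ± 0.16 (adjusted p = 0.051). The 10-array fit called Mmp3 with an intensity trend and robust variances (adjusted p = 0.045), without siRNA-140 replicate 1 (0.70, adjusted p = 0.040) and with 1 value tested per gene (adjusted p = 0.034), and did not call it under the other 7 settings run. Mmp19, which acts on basement membrane, differed by -0.06 in the 10-array fit and was not called.

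Timp1 and Timp2, secreted inhibitors of most MMPs, were both higher with siRNA-140 in the 10-array fit. Timp1 read 10.99, 11.23 and 10.62 in replicates 1, 2 and 3 of siRNA-140, against 11.02, 10.59 and 10.55 in replicates 1, 2 and 3 of siRNA-96. As labelled the difference was 0.23 ± 0.15 (SE; interval -0.10 to 0.55), and in the 10-array fit it was 0.54 ± 0.12 (interval 0.29 to 0.79, limma adjusted p = 0.010). The 4 siRNA arrays alone did not call it (adjusted p = 0.084), nor did the 10-array fit without siRNA-140 replicate 2 (0.42, adjusted p = 0.080) or without siRNA-96 replicate 3 (0.52, adjusted p = 0.064).

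Timp2, which also takes part in the activation of pro-MMP2, read 12.89, 13.14 and 12.48 in replicates 1, 2 and 3 of siRNA-140, against 12.89, 12.50 and 12.41 in replicates 1, 2 and 3 of siRNA-96. As for Timp1, siRNA-140 replicate 3 was the low array of its group and siRNA-96 replicate 1 the high one. The difference was 0.24 ± 0.15 (SE; interval -0.09 to 0.57) as labelled and 0.56 ± 0.11 (interval 0.32 to 0.80, limma adjusted p = 0.0058) in the 10-array fit, with an adjusted p of 0.076 in the 4 siRNA arrays alone. The 4 other bright Timp2 probe sets gave 10-array differences of 0.46 to 0.89, with adjusted p of 0.00065 to 0.0087, and 3 of them also passed in the 4 siRNA arrays alone. Timp3, the matrix-bound inhibitor of ADAM and ADAMTS enzymes, read 11.25, 11.36 and 10.94 with siRNA-140, against 11.31, 10.99 and 11.07 with siRNA-96. Its 10-array difference of 0.28 (interval 0.05 to 0.50) had a limma adjusted p of 0.15, which became 0.019 with an intensity trend and robust variances. Timp4, an inhibitor mainly of heart and brain, was dim and differed by 0.12 (interval -0.15 to 0.39).

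**Figure D3:**
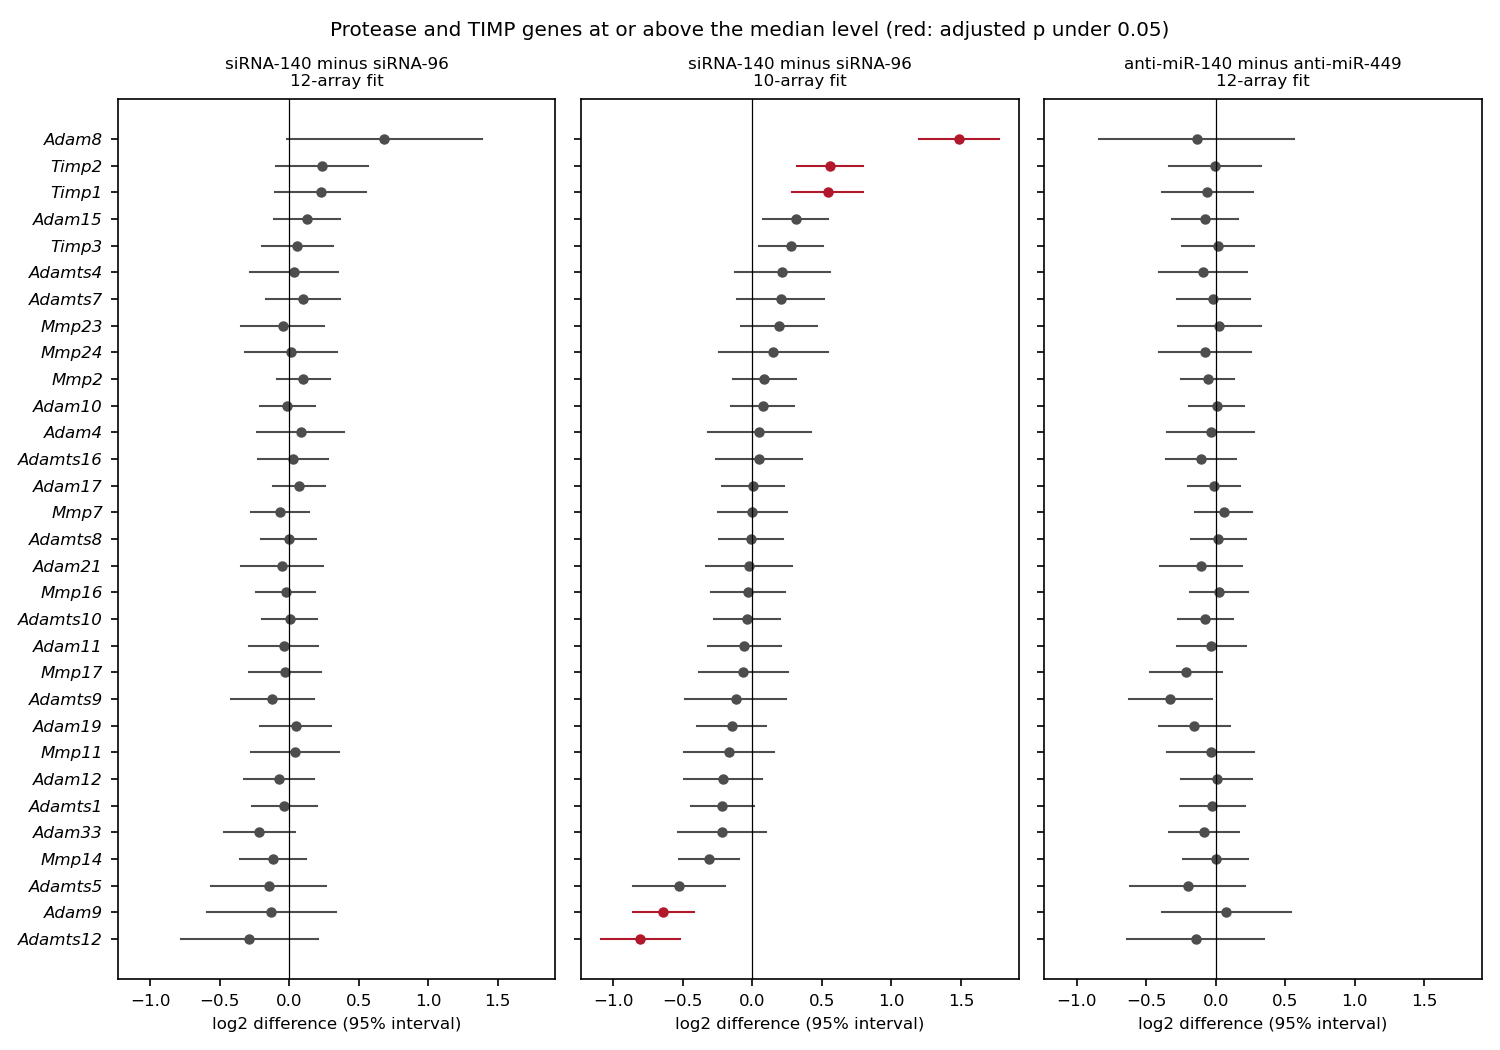
Log2 difference with its 95% limma interval (x axis) for the 31 protease and TIMP genes at or above the median level (y axis), for siRNA-140 minus siRNA-96 over 12 arrays and over 10 arrays and for anti-miR-140 minus anti-miR-449; red marks an adjusted p under 0.05. Red appears only in the 10-array panel, for Adam8, Timp2, Timp1, Adam9 and Adamts12.

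The ADAMs of testis and epididymis numbered 16, and 14 of them lay under the median level. None was called in the siRNA comparison. Adam26a, a sperm-lineage gene, read 2.66, 2.94 and 2.66 in replicates 1, 2 and 3 of siRNA-140, against 2.37, 2.47 and 2.55 in replicates 1, 2 and 3 of siRNA-96, a difference of 0.29 ± 0.10 (SE, limma adjusted p = 0.88). Every siRNA-140 array lay above every siRNA-96 array, at levels near the floor of the arrays. In total the siRNA groups of 7 of 65 members did not overlap, against 5.8% of all genes: Adam22, Adam26a, Adam6a and Adamts18 were higher with siRNA-140, and Adam25, Adam33 and Mmp1b lower. Only Adam33 of these reached the median level. Adam5 and Adam6a, also germ-line ADAMs, differed by 0.26 each as labelled. Of the male germ cell markers 5 of 7 lay under the median level, and none was called.

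For the genes that follow, the siRNA arrays parted into siRNA-140 replicates 1 and 2 with siRNA-96 replicate 1 on the first side and the other 3 siRNA arrays on the other. Adam8, Timp1 and Timp2 were high and Adam9, Adamts5, Adamts12 and Mmp14 low on the first side. Over the 6 anti-miR arrays Adam8 ran from 6.02 to 6.26, Timp1 from 11.31 to 11.54, Timp2 from 12.96 to 13.05, Adam9 from 10.89 to 11.03 and Mmp14 from 9.61 to 9.71. Adamts12 ran from 6.04 to 6.48 and Adamts5 from 10.51 to 11.07, against 10.22 to 10.91 for Adamts5 over the siRNA arrays. Array medians were 4.32 to 4.38 in the anti-miR arrays and 3.95 to 4.02 in the siRNA arrays. Levels of a gene therefore cannot be compared between the 2 experiments.

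**Figure D4:**
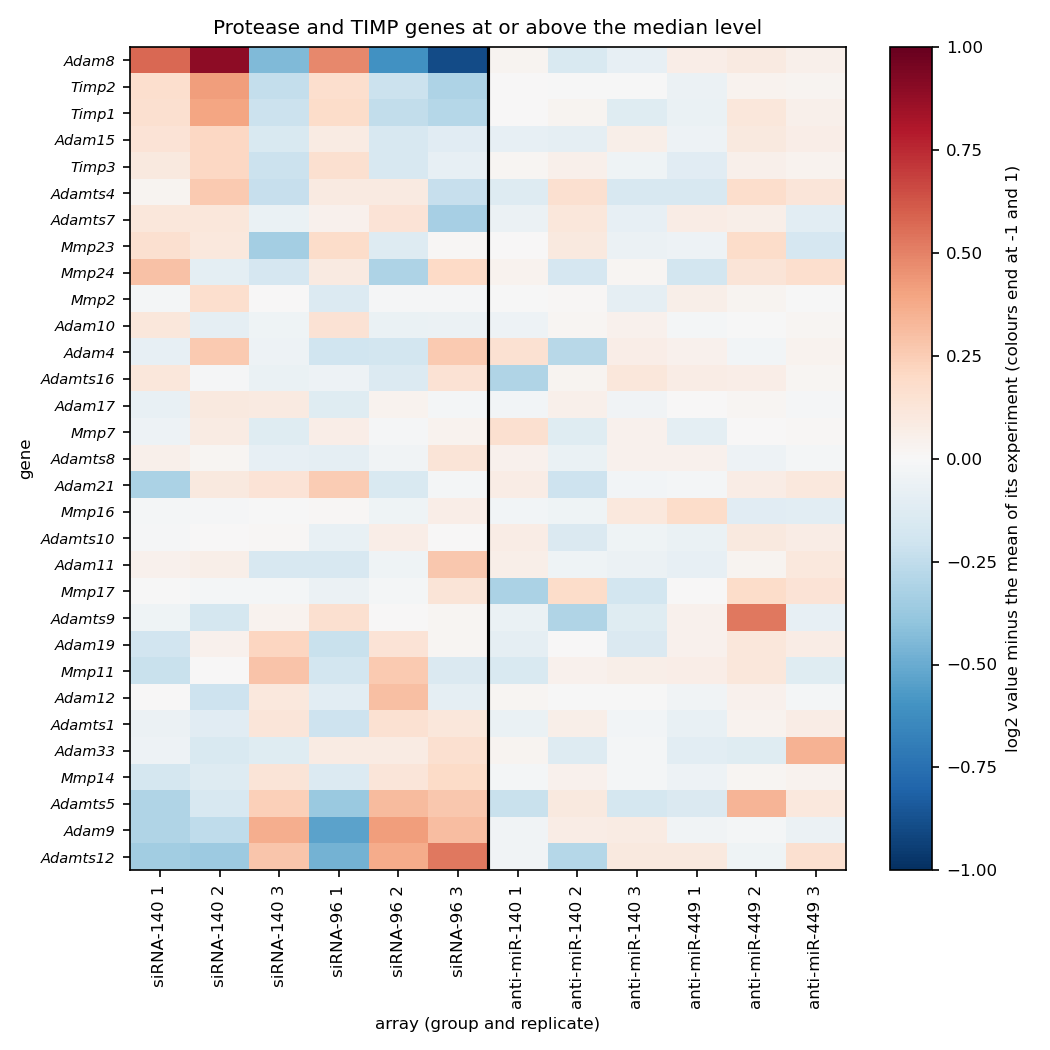
Heat map of the 31 protease and TIMP genes at or above the median level (rows, in the order of the 10-array difference) in the 12 arrays (columns), coloured by the log2 value minus the gene's mean over the 6 arrays of the same experiment; the line parts the siRNA arrays from the anti-miR arrays. In the top and bottom rows siRNA-96 replicate 1 shares its colours with siRNA-140 replicates 1 and 2, and siRNA-140 replicate 3 shares its colours with siRNA-96 replicates 2 and 3.

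The second comparison asked what blocking endogenous miR-140 did, with anti-miR-449 as its control. The first principal component of the 6 anti-miR arrays held 26.7% of their variance. Its scores were -5.54, -3.97 and -11.92 for replicates 1, 2 and 3 of anti-miR-140 and -15.16, 13.38 and 23.21 for those of anti-miR-449. The groups thus overlapped on it, and each anti-miR-449 array correlated best with an anti-miR-140 array. No protease or TIMP gene was called: limma passed 0 of 65 members and 0% of all genes. At an unadjusted p under 0.05 there was 1 member, Adamts9, against 1.56% of all genes. Adamts9 read 4.23, 4.0 and 4.18 in replicates 1, 2 and 3 of anti-miR-140, against 4.34, 4.83 and 4.22 in replicates 1, 2 and 3 of anti-miR-449. The difference of -0.33 ± 0.14 (SE; interval -0.63 to -0.03, adjusted p = 1) was carried mostly by anti-miR-449 replicate 2, and the groups overlapped. The members' median difference was -0.04, against -0.0033 over all genes, and 43 of 65 lay under 0, against 9392 of 18193 genes.

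Adamts5 read 10.51, 10.83 and 10.56 in replicates 1, 2 and 3 of anti-miR-140, against 10.59, 11.07 and 10.84 in replicates 1, 2 and 3 of anti-miR-449. The groups overlapped, and the difference was -0.20 ± 0.19 (SE; interval -0.61 to 0.21). The other bright Adamts5 probe sets differed by -0.07 and -0.09. Adam9 differed by 0.08 (interval -0.39 to 0.54), Adamts12 by -0.14 (interval -0.63 to 0.35), Timp1 by -0.06 (interval -0.39 to 0.27) and Timp2 by 0.00 (interval -0.33 to 0.33). These intervals come from a fit whose spread is shared with the siRNA arrays, so they are wider than the anti-miR arrays alone would give for genes such as Timp2.

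In 3 of 65 members the anti-miR groups did not overlap, against 7.72% of all genes. Adam8 read 6.20, 6.02 and 6.09 in replicates 1, 2 and 3 of anti-miR-140, against 6.24, 6.26 and 6.22 in replicates 1, 2 and 3 of anti-miR-449. Adam19, a sheddase of neuregulins, read 6.06, 6.15 and 6.0 with anti-miR-140, against 6.19, 6.26 and 6.22 with anti-miR-449. Adam1b, a sperm ADAM, was the third, and all 3 were lower with anti-miR-140 by 0.12 to 0.15 on the log2 scale, without passing the test. Mmp3 read 3.33, 3.67 and 3.67 with anti-miR-140, against 3.93, 3.97 and 3.62 with anti-miR-449, and the groups overlapped; it differed by -0.28 ± 0.15 (SE). Mmp19, Adam26a and Adam32, another sperm ADAM, had the smallest p on the higher side, with differences of 0.22, 0.12 and 0.20, and Adamts3 differed by -0.22. Mmp3, Mmp19, Adam26a, Adam32 and Adamts3 all lay under the median level.

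The difference between the siRNA and the anti-miR contrasts was tested in the same model. As labelled it called 0 of 65 members and 0% of all genes, and 2 members had an unadjusted p under 0.05, against 2.35% of all genes. Mmp3 had the smallest p among the members, with a difference of contrasts of 0.65 ± 0.21 (SE; interval 0.20 to 1.09, limma adjusted p = 0.997). In the 10-array fit 6 of 65 members were called, against 5.73% of all genes. Adam8 (1.62), Mmp3 (0.83), Timp1 (0.60) and Timp2 (0.56) were more positive in the siRNA contrast, and Adam9 (-0.72) and Adamts12 (-0.66) more negative, with limma adjusted p from 0.00013 for Adam8 to 0.046 for Adamts12. Adamts5 was not called (-0.33 ± 0.20, adjusted p = 0.48), and its siRNA and anti-miR differences had the same sign.

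What the promoters of these genes share was looked up in the 250 bases before each gene's start (RefSeq, GRCm38.p6), which the table gave for 37 of the 65 members. Both strands were searched for TGANTCA (AP-1 element), TATAAA, known as the TATA box, GGGCGG (GC box) and an interferon-type repeat, which is GAAA, any 2 bases and GAAA again; no match overlaps another in the printed stretches. TGANTCA stood before 8 of 9 Mmp genes on chromosome 9, where a run of neighbouring MMP genes lies, against 7.82% of all 27025 genes of the table. TATAAA stood in 7 of these 9, against 14.3%, and GGGCGG in none, against 35.4%. The Adamts and Timp genes had GGGCGG before 5 of 6 Adamts and 3 of 4 Timp genes and TGANTCA before none of either. The interferon-type repeat was found before Mmp13 only, 1 of 37 genes, against 3.46% of all genes. A match is a description and not a shown binding site. To let the MMP windows be set beside those of Adam8, Timp1 and Timp2, the 100 bases before the start are printed on the gene's strand, 5′ to 3′, with the matches in capitals. For the MMP genes they span chr9:7445722-7445821, plus strand for Mmp3, chr9:7502242-7502341, plus strand for Mmp10, chr9:7272414-7272513, plus strand for Mmp13 and chr9:7464041-7464140, plus strand for Mmp1a. The others span chrX:20870066-20870165, plus strand for Timp1, chr11:118355412-118355511, minus strand for Timp2 and chr7:139992563-139992662, minus strand for Adam8.
Mmp3: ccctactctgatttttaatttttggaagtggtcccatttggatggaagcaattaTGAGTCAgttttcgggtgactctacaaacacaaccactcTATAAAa
Mmp10: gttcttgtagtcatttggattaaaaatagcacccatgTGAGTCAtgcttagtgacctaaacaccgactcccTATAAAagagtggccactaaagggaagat
Mmp13: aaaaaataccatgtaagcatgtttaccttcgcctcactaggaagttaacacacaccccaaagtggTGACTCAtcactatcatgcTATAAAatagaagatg
Mmp1a: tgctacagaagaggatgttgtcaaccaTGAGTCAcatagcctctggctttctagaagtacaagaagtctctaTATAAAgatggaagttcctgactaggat
Timp1: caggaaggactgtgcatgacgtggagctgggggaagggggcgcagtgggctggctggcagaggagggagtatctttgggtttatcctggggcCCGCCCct
Timp2: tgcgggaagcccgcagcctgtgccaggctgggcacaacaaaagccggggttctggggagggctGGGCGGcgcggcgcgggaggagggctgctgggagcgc
Adam8: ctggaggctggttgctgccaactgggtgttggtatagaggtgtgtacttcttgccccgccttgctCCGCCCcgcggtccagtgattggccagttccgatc

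**Figure D5:**
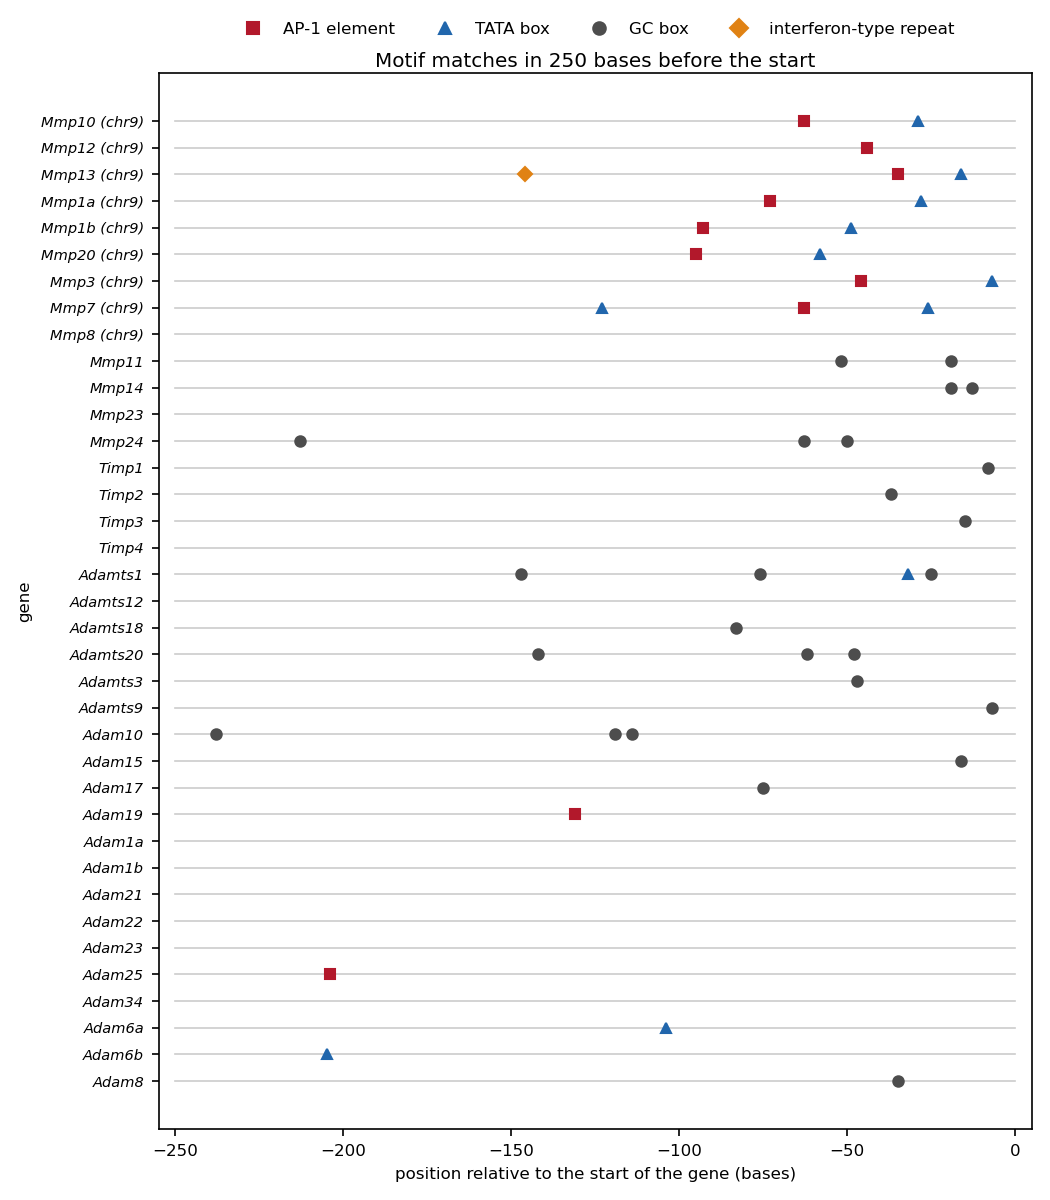
Position of each motif match (x axis, bases relative to the gene's start) in the 250 bases before the start of the 37 genes with a window (y axis). In 8 of the 9 chromosome 9 MMP genes an AP-1 match lies between 95 and 35 bases before the start, and in 7 a TATA match lies nearer the start than the AP-1 match, while GC box matches mark other genes.

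Of the 8 chromosome 9 MMP genes with an AP-1 match 7 lay under the median level, and Mmp7 reached it. Mmp7, matrilysin, read 4.14, 4.27 and 4.07 in replicates 1, 2 and 3 of siRNA-140, against 4.26, 4.18 and 4.23 in replicates 1, 2 and 3 of siRNA-96, and was not called. Mmp10, stromelysin 2, read 4.03, 3.72 and 3.97 in replicates 1, 2 and 3 of siRNA-140, against 3.88, 3.81 and 4.15 in replicates 1, 2 and 3 of siRNA-96, and the 10-array difference was -0.10. Mmp13, the main collagenase of cartilage, read 2.04, 1.86 and 2.44 with siRNA-140, against 1.93, 2.01 and 2.26 with siRNA-96. The groups overlapped for both genes, and of these Mmp10 and Mmp13 readings only that of Mmp10 in siRNA-96 replicate 3 reached the median level. Of the 7 genes for Fos and Jun proteins, which form AP-1, 6 reached the median level and none was called, with 10-array differences of -0.61 to 0.32 and anti-miR differences of -0.07 to 0.54.

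Genes that act on these proteases were described from lists of activators, inhibitors and regulators. Of 32 measured activators, clearance receptors and other inhibitors, 0 were called as labelled or with anti-miR-140, and in the 10-array fit 2 were lower and 5 higher, against 11.1% of all genes. Of these 32 genes 20 reached the median level, where 16.9% of all genes were called in that fit. Tspan15, a tetraspanin that partners ADAM10, read 8.70, 8.96 and 7.26 in replicates 1, 2 and 3 of siRNA-140, against 8.73, 7.31 and 6.94 in replicates 1, 2 and 3 of siRNA-96. Its 10-array difference was 1.71 ± 0.14 (SE, limma adjusted p = 6.8e-06). Reck, a membrane-anchored inhibitor of MMPs, read 7.06, 7.0 and 5.97 with siRNA-140, against 6.73, 5.99 and 6.08 with siRNA-96, a 10-array difference of 0.99 (adjusted p = 2.0e-04). Both genes followed the split of Adam8, with siRNA-96 replicate 1 high. Plaur, the receptor of urokinase, was higher by 0.69, and Plat, tissue plasminogen activator, lower by 1.06, each also called in the 4 siRNA arrays alone.

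Of 7 measured ADAMTS-like genes, whose products resemble ADAMTS proteins but lack the protease domain, Adamtsl3 was called in the 10-array fit, against 11.1% of all genes. It read 8.41, 8.62 and 9.42 in replicates 1, 2 and 3 of siRNA-140, against 8.53, 9.35 and 9.47 in replicates 1, 2 and 3 of siRNA-96, a 10-array difference of -0.90 ± 0.12 (SE, limma adjusted p = 0.00042). Of 18 measured transcription factors known from protease promoters, 3 were lower and none higher in the 10-array fit, against 4.85% and 6.27% of all genes. Of these factors 17 reached the median level, where 7.21% of all genes were lower and 9.73% higher. Epas1, which encodes the hypoxia factor HIF-2 alpha, read 6.67, 6.65 and 7.71 with siRNA-140, against 6.33, 7.83 and 7.86 with siRNA-96, a 10-array difference of -1.19 ± 0.10 (adjusted p = 8.0e-06). Etv4, an ETS factor, and Hif1a, the other hypoxia factor, were lower by 0.47 and 0.91, without passing in the 4 siRNA arrays alone. Neither list had a call as labelled or in the anti-miR comparison.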

How the data were processed

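Total RNA, extracted with RNeasy kits and carrying a biotin label, was read on Affymetrix arrays, as the labels' protocols state. Per the submitters' processing notes the deposited table is the output of RMA, in log2 units. The RMA version, the probe set definitions and whether both experiments were normalized together are not given in the sources used here. Array medians were 3.95 to 4.02 in the siRNA arrays and 4.32 to 4.38 in the anti-miR arrays. Upper quartiles were 6.52 to 6.68 in the siRNA arrays and 6.89 to 6.95 in the anti-miR arrays. The values used here thus did not have equal distributions across both experiments. How the experiments were normalized was not tested. RMA subtracts background, equalises the distributions of arrays and sums up probes, which can shrink small differences and leaves dim probe sets with little resolution. The number of arrays limits the precision.

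Of 45101 probe sets, 64 array controls were left out and 45037 tested without a filter on level. Symbols came from the platform annotation, with 34945 probe sets of 1 symbol, 932 of several and 9160 of none, and only probe sets of 1 symbol were named. All 116 member probe sets matched a RefSeq gene, and 0 symbols changed. Gene positions are not given, since the deposited values name no build. In R 4.3.3, limma 3.58.1 (lmFit and eBayes) fitted 4 group means to the 12 arrays, and a call needed an adjusted p (Benjamini-Hochberg, all probe sets) under 0.05. Adjusted p-values come from this fit, from the 10-array fit, from the 4 siRNA arrays alone or from an alternative setting named with the value. Where the probe sets of a gene were averaged, 1 value was tested per gene. The fits were tested on simulated data with independent noise and no split among the arrays. That test therefore does not cover data such as the siRNA arrays, which did not all follow their labels. Replicate numbers were not used to pair the samples in these fits. In the siRNA experiment the deviations of same-numbered arrays correlated between -0.24 and 0.44, and those of arrays with unlike numbers between -0.68 and 0.49. In the anti-miR experiment these ranges were -0.03 to 0.10 and -0.07 to 0.09. The siRNA arrays did not all follow their labels, so these values cannot show whether those samples were paired.

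Named were Adamts5, Adamts12, Adam9 and the TIMPs, each member called in either fit, the 10 with the largest SD after subtracting each experiment's mean, the 3 each way with the smallest p per contrast, and 4 of each other list. Other members were named to describe their role group, after their values were seen. The members and lists were chosen with earlier results of these data known. Alternatives were another normalization, variance model, filter, probe set choice, threshold, replicate block and each array left out.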

Additional observations from a re-analysis of the deposited data

How the results depend on the processing

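With 12 arrays as labelled, the siRNA comparison called 0 probe sets and 0 members. It called 4043 and 6 in the 10-array fit and 1743 and 3 in the 4 siRNA arrays alone. At an unadjusted p under 0.05 there were 2292 and 4. Leaving out 1 array gave 0 to 36 probe sets (36 without siRNA-96 replicate 1, 25 without siRNA-96 replicate 2) and no members. The anti-miR comparison had 1022 probe sets and 1 member at an unadjusted p under 0.05, and 0 of either under the other settings. The difference of the contrasts had 1985 and 6 in the 10-array fit, 1322 and 2 at an unadjusted p, and 0 to 1 probe sets with 1 array left out (1 without siRNA-96 replicate 1). Among the alternatives of the 10-array fit, which were chosen after seeing the data, array weights called 2227 probe sets, an intensity trend with robust variances called 11 members, and an unadjusted p passed 9243 and 13. Leaving out 1 more array gave 2400 probe sets (without siRNA-96 replicate 3) to 4828 (without siRNA-140 replicate 1), with 2567 without siRNA-140 replicate 2, and 4 to 8 members. The cause of these changes was not tested, except that fewer arrays enter the smaller fits. No called direction was reversed under the settings run. With the replicate block on all 12 arrays, limma called 0 probe sets and 0 members in each contrast. No paired analysis was possible because, in the 10-array fit, the siRNA groups share fewer than 2 replicate numbers. Among the members, 34 of 65 lay under the median level, where array signal limits what can be seen, and 2 or 3 arrays a group limit the precision of the rest.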

Other observations

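Known substrates of these proteases were described from lists chosen with earlier results of these data known. Of 32 measured matrix substrates of ADAMTS and MMP enzymes, 8 were lower and 3 higher with siRNA-140 in the 10-array fit, which drops siRNA-140 replicate 3 and siRNA-96 replicate 1, against 11.1% of all genes called. None was called with the 12 arrays as labelled. Of the 32 substrates 27 reached the median level, where 16.9% of all genes were called in the 10-array fit. Postn, a matricellular protein of connective tissue, read 6.61, 6.17 and 10.01 in replicates 1, 2 and 3 of siRNA-140, against 6.23, 10.06 and 10.16 in replicates 1, 2 and 3 of siRNA-96. The 3 low arrays were those in which Adam9 and Adamts12 were low. Col3a1, a fibrillar collagen, had a 10-array difference of -1.12 ± 0.10 (SE, limma adjusted p = 1.4e-05), and Fbn2, a microfibril protein, was lower by 1.06. Vcan, the proteoglycan that several ADAMTS enzymes cleave, read 8.42, 8.39 and 7.69 with siRNA-140, against 8.14, 7.67 and 7.5 with siRNA-96, and was higher by 0.82 in the 10-array fit. Fmod, a small collagen-binding proteoglycan, was lower by 0.75.

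Of 39 measured ligands and receptors that ADAMs shed, 8 were lower and 6 higher in the 10-array fit, against 11.1% of all genes called, and 2 and 1 in the 4 siRNA arrays alone, against 4.83%. The median level was reached by 30 of the 39. At that level 16.9% of all genes were called in the 10-array fit and 7.3% in the 4 siRNA arrays alone. Hbegf, a ligand of the EGF receptor, read 8.86, 9.23 and 8.10 in replicates 1, 2 and 3 of siRNA-140, against 8.98, 8.01 and 7.98 in replicates 1, 2 and 3 of siRNA-96. Its 10-array difference was 1.05 ± 0.13 (SE, limma adjusted p = 1.9e-04). Jag1, a ligand of Notch, was lower by 1.03, and Cdh2, N-cadherin, by 0.59. Tnf, the substrate that gave ADAM17 its name, reached the median level and was higher by 0.58. In the anti-miR comparison none of the substrates or shed proteins was called.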
